A study of Mus musculus with 4 samples.

Results

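Peaks of phosphorylated ATF2 were examined at 9 genes of acidic nuclear proteins and heterochromatin protein 1 (HP1), out of 21887 protein-coding genes on the assembled mouse chromosomes. The genes were taken by name. They are Set, Anp32a, Anp32b and Anp32e, which encode acidic histone-binding chaperones, the nucleolar proteins Npm1 (nucleophosmin) and Ncl (nucleolin), and the HP1 genes Cbx5 (HP1 alpha), Cbx1 (HP1 beta) and Cbx3 (HP1 gamma). A gene was counted as having a peak in a library when a peak summit lay over it or within 1 kb of either end. CUT&Tag, in which an antibody tethers a transposase to chromatin, had been run on haematopoietic stem cells sorted from marrow as CD48-CD150+LSK, with 2000 to 5000 cells per library. The donors were C57BL/6J mice of wild-type genotype and of an age that the sources used here do not give. All cells were untreated and of the same genotype, and the 2 groups of 2 libraries differ in the antibody: against ATF2 phosphorylated at T69/71 (T67/71 in the antibody field of the same samples) or at S490/498. No library made with a control antibody was analysed here, so no background from control samples stands beside these values. Nothing in the labels says that replicate libraries were made from different animals, so their spread may be technical.

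ATF2 is a leucine-zipper transcription factor that binds the cAMP response element and related AP-1 sites, alone or paired with Jun proteins. SET and the ANP32 proteins carry long acidic tails, bind histones and inhibit the phosphatase PP2A, and ANP32E is known as a chaperone that removes the histone variant H2A.Z. Nucleophosmin and nucleolin shuttle between nucleolus and nucleoplasm in ribosome production, and NPM1 is often mutated in acute myeloid leukaemia. HP1 proteins bind methylated lysine on histone H3 and compact heterochromatin. SET and DEK, the chromatin protein in the title of the study, are both known as partners in leukaemia fusions with the nucleoporin NUP214.

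The lists held 12464 and 14716 peaks in the T69/71 libraries, and 7132 and 435 in the S490/498 libraries. S490/498 replicate 2 stood apart. The lowest background at any of its listed peaks, recovered from the deposited values, was 1.52 fragments, against 0.0874 to 0.117 in the other libraries. With 435 peaks listed, this minimum may lie above the genome-wide level, which was not measured. The peak with the fewest fragments in this library had 9, against 3 in each of the others. Of 10 stem cell marker genes, 4, 4, 3 and 0 had a peak in the 4 libraries in the same order, and of 15 markers of other blood lineages 2, 4, 4 and 0 did. By the same rule 37.4%, 39%, 24.7% and 0.859% of all protein-coding genes had a peak, so the stem cell markers were near the background. Peaks do not measure expression, so the sort was not checked by these counts.

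The sequences under 5 of the peaks are shown because the results turn on where the summits lie relative to them. Each is a promoter window of RefSeq for GRCm38.p6, from 250 bases before to 50 bases after a listed transcription start, read 5′ to 3′ along the gene. Capitals mark every match, on either strand, to the core of the cAMP response element (TGACG), to the AP-1 site (TGACTCA or TGAGTCA) or to the CCAAT box (CCAAT). The windows are at Hnrnpa2b1, the gene that shares the Cbx3 peak (chr6:51469845-51470144, minus strand), Ncl (chr1:86359406-86359705, minus strand), Anp32e (chr3:95929007-95929306, plus strand), Hnrnpa1, the gene that shares the Cbx5 peak (chr15:103240147-103240446, plus strand), and the inner start of Set (chr2:30066224-30066523, plus strand).
Hnrnpa2b1: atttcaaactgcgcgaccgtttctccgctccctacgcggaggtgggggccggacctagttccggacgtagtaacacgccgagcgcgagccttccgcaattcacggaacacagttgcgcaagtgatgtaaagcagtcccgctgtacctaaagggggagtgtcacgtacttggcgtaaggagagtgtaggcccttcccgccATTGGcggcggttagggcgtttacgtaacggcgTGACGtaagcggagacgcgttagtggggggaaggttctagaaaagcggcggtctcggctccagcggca
Ncl: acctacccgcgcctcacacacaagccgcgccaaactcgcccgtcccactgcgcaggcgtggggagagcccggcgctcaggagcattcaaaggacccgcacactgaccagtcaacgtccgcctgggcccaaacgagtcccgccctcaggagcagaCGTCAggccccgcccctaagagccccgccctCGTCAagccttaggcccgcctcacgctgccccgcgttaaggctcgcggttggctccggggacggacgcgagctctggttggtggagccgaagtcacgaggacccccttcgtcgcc
Anp32e: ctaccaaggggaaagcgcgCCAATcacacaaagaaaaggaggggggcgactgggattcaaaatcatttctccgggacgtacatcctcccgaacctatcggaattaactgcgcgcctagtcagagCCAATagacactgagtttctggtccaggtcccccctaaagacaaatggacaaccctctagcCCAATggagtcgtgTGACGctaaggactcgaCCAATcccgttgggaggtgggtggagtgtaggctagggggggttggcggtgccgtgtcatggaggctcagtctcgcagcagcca
Hnrnpa1: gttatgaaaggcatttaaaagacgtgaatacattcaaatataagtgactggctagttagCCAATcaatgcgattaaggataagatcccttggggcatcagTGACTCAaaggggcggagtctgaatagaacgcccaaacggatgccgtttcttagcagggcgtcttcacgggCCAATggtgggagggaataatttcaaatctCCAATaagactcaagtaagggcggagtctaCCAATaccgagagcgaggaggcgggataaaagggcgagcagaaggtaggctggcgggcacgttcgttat
Set: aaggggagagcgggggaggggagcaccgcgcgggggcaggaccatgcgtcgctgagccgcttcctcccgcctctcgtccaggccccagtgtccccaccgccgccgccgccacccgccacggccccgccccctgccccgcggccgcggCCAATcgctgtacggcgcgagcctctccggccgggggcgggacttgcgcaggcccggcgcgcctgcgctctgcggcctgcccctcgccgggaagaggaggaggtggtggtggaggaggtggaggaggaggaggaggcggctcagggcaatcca

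Nearly all of the 9 genes had a T69/71 peak. In replicate 1 all 9 had one, where 37.4% of all protein-coding genes did. In replicate 2 it was 8 of 9, against 39% of all genes, and the gene without a peak was Cbx1. In the T69/71 libraries together, 8 of 9 were marked in each, against 29.4% of all genes. In S490/498 replicate 1, 7 of 9 had one, against 24.7%, and Anp32a and Cbx1 had none. S490/498 replicate 2 had a peak at 0 of 9, where 0.859% of all genes had one, so a difference from the background could not be seen in 9 genes. The same 0 of 9 holds for both S490/498 libraries together, against 0.489%. Set, Npm1, Ncl, Anp32b, Anp32e, Cbx3 and Cbx5 had peaks that overlapped between the 2 T69/71 lists and the list of S490/498 replicate 1. These are 7 of 9 genes, where 19.4% of all genes had a peak in all 3 of these libraries.

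**Figure D1:**
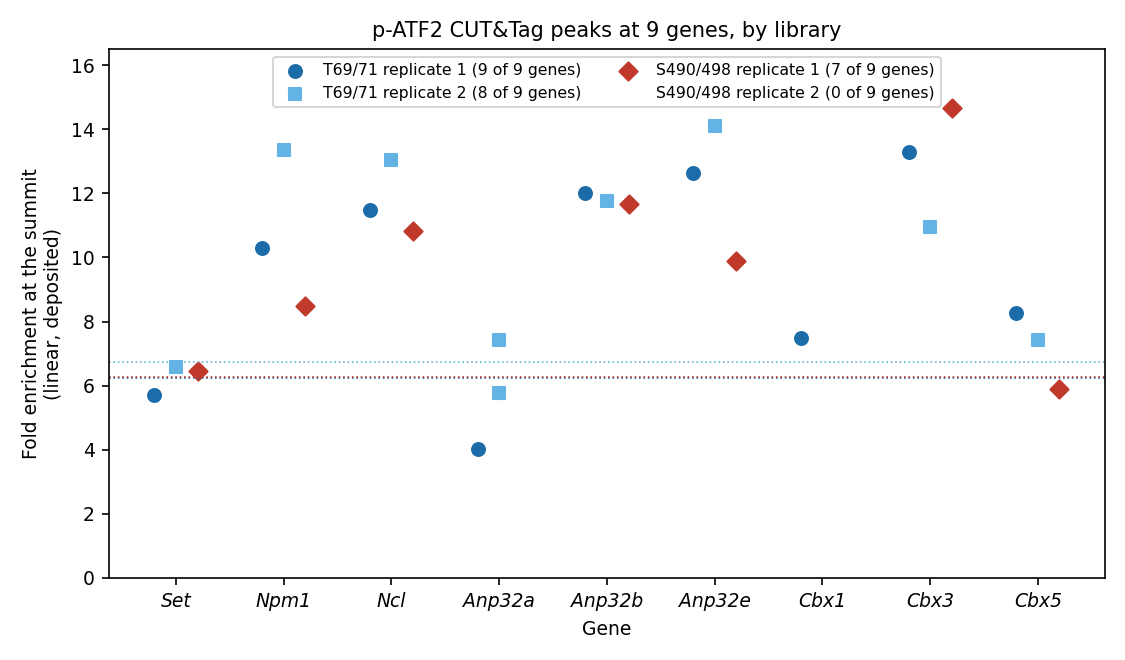
Fold enrichment at the summit (linear axis from 0, as deposited) for every peak at the 9 genes, with 1 marker per peak, coloured by library. Dotted lines are the median fold of all peaks at protein-coding genes in each library (6.25, 6.74 and 6.26). Anp32b, Anp32e, Ncl, Npm1 and Cbx3 lie above all 3 lines in each of the 3 libraries, and S490/498 replicate 2 has no peak to plot.

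The number of genes with a peak averaged 8.5 ± 0.707 (SD, n = 2) for T69/71 and 3.5 ± 4.95 (SD, n = 2) for S490/498. The difference of 5 genes did not pass a two-sided exact permutation test over the 4 libraries (p = 0.333, the smallest that 2 against 2 allows). It rested on S490/498 replicate 2: without that library the difference was 1.5 genes, and without S490/498 replicate 1 it was 8.5. With −log10 q of at least 10, the genes with a peak in both T69/71 libraries fell from 8 to 5 (Ncl, Npm1, Anp32b, Anp32e and Cbx3), against 9.83% of all genes.

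The 9 genes are between 10582 and 48359 bp long, with a median of 18143 bp against 17169 bp for all protein-coding genes. Their starts were rich in CG dinucleotides. The 11 RefSeq promoter windows listed for 8 of them held a median of 29, against 7 over all 32851 windows; Npm1 has no listed window. Among the 8383 protein-coding genes with at least 16 CG dinucleotides at a listed start, the number at Anp32e and a limit set after the windows were seen, a peak was present at 60.2% and 61.4% with T69/71, and at 40.9% and 1.09% with S490/498, by replicate. Of the 8 genes with a window, 8, 7, 6 and 0 did. In both T69/71 libraries 49.5% of the 8383 genes had a peak, and 7 of the 8. In these and S490/498 replicate 1 together, 34.0% had one, and 6 of the 8. What CG content adds to these counts was not tested.

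The peaks themselves differed in strength, and the genes were ordered by the fold enrichment of the strongest peak in each library. Fold is relative to the background recovered at each peak, which differs between genes. In T69/71 replicate 1 that background was 0.976 at Anp32e, with 24 fragments, and 3.06 at Cbx3, with 53. The order by fold is therefore not an order by fragment number. A longer gene has more places for such a peak; the Anp32a value in T69/71 replicate 2 comes from one 22516 bp into the gene. Over the T69/71 libraries, Anp32e had a mean fold of 13.4 ± 1.03, Ncl 12.3 ± 1.11, Cbx3 12.1 ± 1.67, Anp32b 11.9 ± 0.172 and Npm1 11.8 ± 2.16 (SD, n = 2 each). Both Anp32e values were above both Anp32b values, and every other pair among these 5 genes overlapped. In S490/498 replicate 1 Anp32b was the higher of the pair, at 11.7 against 9.88. With 2 values each, the order of the 5 genes is not resolved. Cbx5 followed at 7.84 ± 0.593 and Set at 6.15 ± 0.631, and their values overlapped with none of the 5 nor with each other. Anp32a, with values of 4.03 and 7.43 for its strongest peaks, overlapped both, and Cbx1 had 1 value, 7.47. The median fold over all peaks at protein-coding genes was 6.25 and 6.74 in these libraries. By the strongest peak of each gene, 7 of the 9 genes with a peak in replicate 1 were above that median. Of the 8 in replicate 2, 7 were. The median is over all peaks and not over the strongest per gene, so the measures are unlike. Anp32a was above it in replicate 2 only by its peak 22516 bp into the gene, as the one near its start had 5.77. In S490/498 replicate 1, 6 of 7 were above its median of 6.26.

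**Figure D2:**
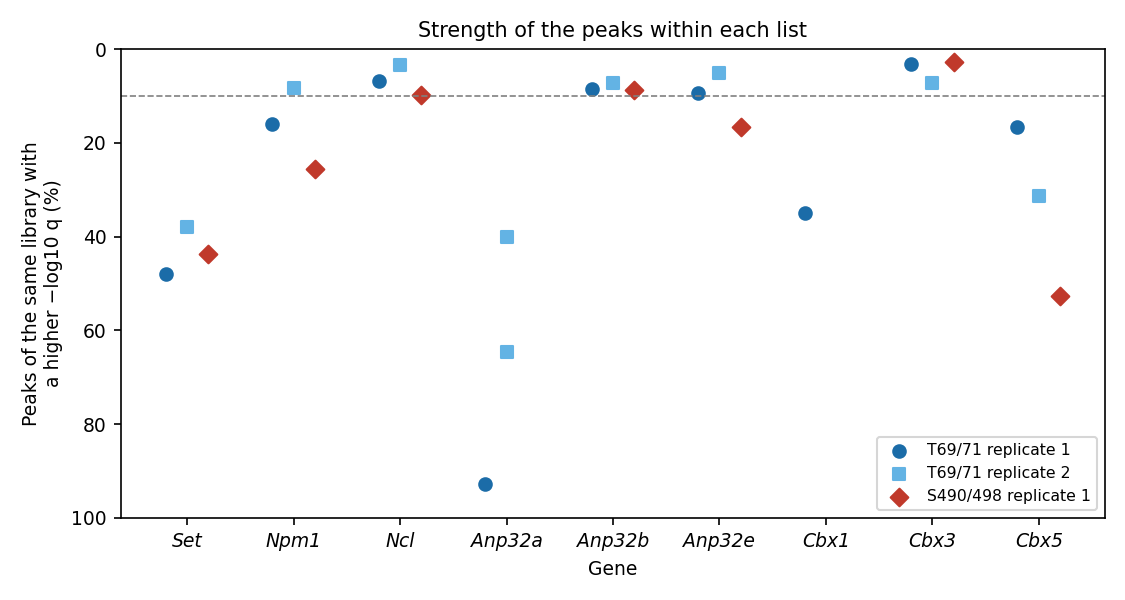
Percentage of peaks in the same library with a higher −log10 q than the peak plotted, with the strongest at the top of the reversed axis and the dashed line at 10%. Cbx3, Ncl and Anp32b lie above the line in all 3 libraries shown, and the Anp32a peak of T69/71 replicate 1 is the weakest, with 92.8% of the list above it.

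The shared peak at Cbx3 had the steadiest position of the set. Cbx3 lies on the plus strand of chromosome 6 (51470154 to 51483704), and Hnrnpa2b1, which encodes the RNA-binding protein hnRNP A2/B1, ends 105 bp below it on the minus strand. The peak ran from 51469724 to 51470519 in T69/71 replicate 1, from 51469821 to 51470474 in replicate 2 and from 51469855 to 51470377 in S490/498 replicate 1, across the ends of both genes. Its fold was 13.3, 10.9 and 14.7 in this order, and −log10 q was 41.8, 22.1 and 36.4. Only 3.11%, 7.28% and 2.80% of the peaks in those lists were stronger. The summits were 2 bp apart over the 3 libraries, whereas the median spread was 93 bp over 4159 regions found in the same libraries, and 97.2% of these were wider.

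The summit lay inside Hnrnpa2b1. It was 86 to 88 bp from the end of that gene and 192 to 194 bp from the end of Cbx3. By listed starts, it was 66 to 68 bp upstream of the nearest one of Hnrnpa2b1 and 654 to 656 bp upstream of that of Cbx3. In the Hnrnpa2b1 window printed above, the summits fell on bases 183 to 185, with 1 TGACG match centred 50 to 52 bp away and 1 CCAAT match 17 to 19 bp away. Neither of the 2 Cbx3 windows held a match to any of the motifs or a summit. The peak lies within 1 kb of both genes and cannot be assigned to either.

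Cbx5 had a broad peak over a similar arrangement. On chromosome 15 it lies at 103191546 to 103239904 on the minus strand, 38 bp from Hnrnpa1, the gene of the RNA-binding protein hnRNP A1, which runs the other way; their nearest listed starts are 545 bp apart. The peak was 1095 bp wide in T69/71 replicate 1, 929 bp in replicate 2 and 960 bp in S490/498 replicate 1, where the median widths at genes were 323, 249 and 302 bp. Its fold was 8.26, 7.42 and 5.91, with −log10 q of 14.5, 9.47 and 5.07. The summits were spread over 490 bp, and only 2.26% of the 4159 regions were wider.

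At Cbx5 the summit position differed between the libraries, inside Cbx5 in T69/71 replicate 1 and inside Hnrnpa1 in the other 2. In T69/71 replicate 1 it was 72 bp downstream of the Cbx5 start. In S490/498 replicate 1 it was 114 bp upstream of that start and 23 bp inside the nearer annotated end of Hnrnpa1. In T69/71 replicate 2 it was 418 bp upstream of the Cbx5 start, 327 bp inside Hnrnpa1 and 127 bp upstream of its listed start. It was the only summit in the Hnrnpa1 window printed above, on base 124, with the AP-1 match centred 20 bp away. The Cbx5 window at the start named here, not printed, held only the summit of S490/498 replicate 1, on base 137. That window had no TGACG or AP-1 match and 1 CCAAT match, centred 92 bp from the summit. Each of these summits rested on 10 to 24 fragments. As at Cbx3, the peak lies within 1 kb of both genes.

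Cbx1, the remaining HP1 gene, was marked in 1 library. In T69/71 replicate 1 a peak at chromosome 11, 96789128 to 96789388, had a fold of 7.47 and −log10 q of 7.89, with its summit 50 bp downstream of the listed start. It rested on 9 fragments (exact Poisson 95% interval 4.12 to 17.1, counting error only). The nearest summit outside the gene was 11.1 kb away in T69/71 replicate 2 and 21.2 kb in S490/498 replicate 1. At a pileup this low, the lack of a peak elsewhere does not show a lower level.

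**Figure D3:**
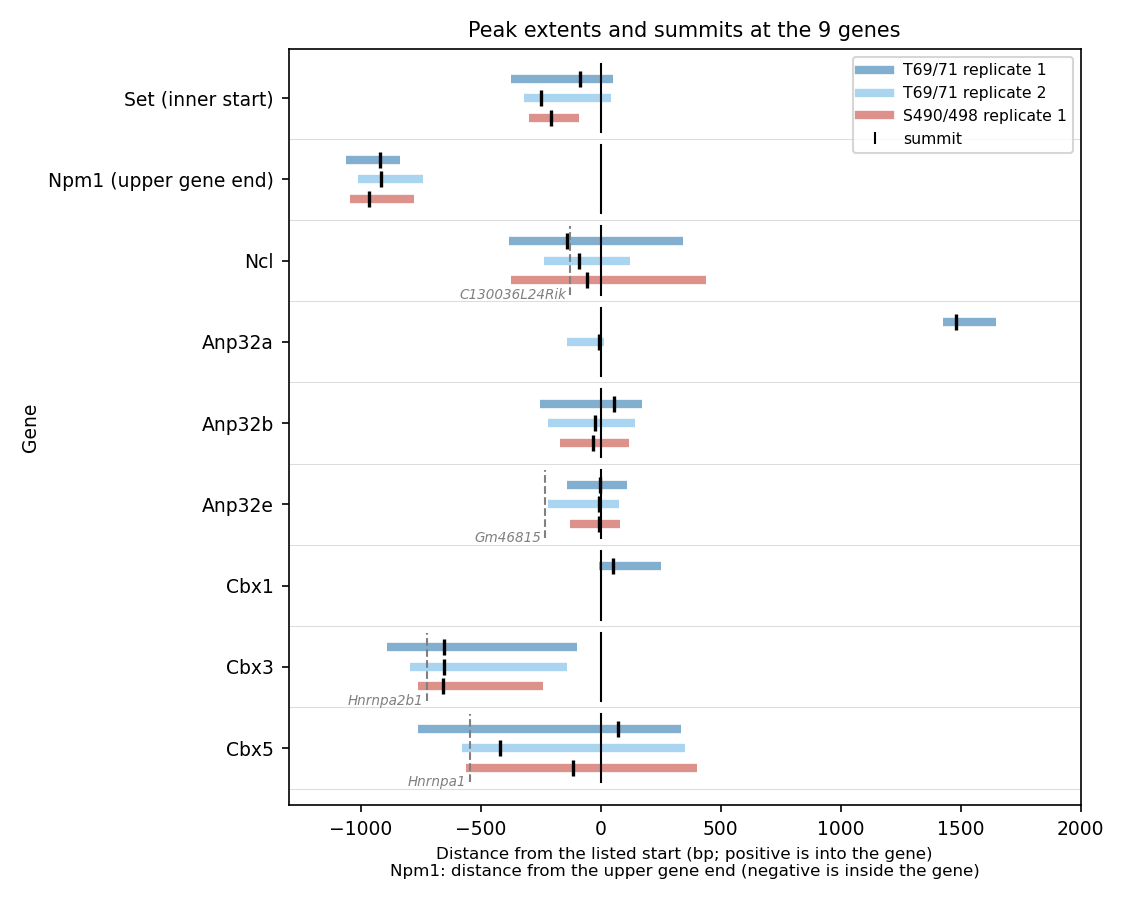
Peak extents (bars) and summits (black ticks) in the 3 larger libraries, by distance in bp from the listed start of each gene (black line) with positive values into the gene; for Npm1, from the upper gene end. Dashed grey lines are starts of neighbours on the other strand. The Cbx3 summits line up beside the Hnrnpa2b1 start, the Cbx5 summits are spread over 490 bp, and another Anp32a peak, 22516 bp into the gene, is outside the axis.

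The ANP32 genes differed from each other. Anp32b (chromosome 4, 46450926 to 46472657, plus strand) had a fold of 12.0 in T69/71 replicate 1, 11.8 in replicate 2 and 11.7 in S490/498 replicate 1, with −log10 q of 23.0, 22.3 and 19.2. The summits were 55 bp downstream and 25 and 31 bp upstream of its start. Of the 7 genes with a peak in all 3 libraries it had the smallest spread of T69/71 folds. No other gene end lay within 1 kb of the summit. Its window held no TGACG or AP-1 match and 1 CCAAT match.

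Anp32e (chromosome 3, 95929245 to 95947387, plus strand) had folds of 12.7 and 14.1 with T69/71 and 9.88 in S490/498 replicate 1, with −log10 q of 21.7, 26.2 and 12.7. The summits lay 2, 8 and 5 bp upstream of the listed start, a spread of 6 bp, and 94.0% of the 4159 regions were wider. In the window printed above they fall on bases 249, 243 and 246, with the TGACG match centred 41 to 47 bp away and the nearest of 4 CCAAT matches 24 to 30 bp away. The long noncoding RNA gene Gm46815 starts on the other strand 232 bp away, so the same peak lies within 1 kb of both.

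Anp32a (chromosome 9, 62341343 to 62378804, plus strand) had weak peaks at different places. In T69/71 replicate 1 the summit lay 1481 bp into the gene, where Gm20346 also lies, with a fold of 4.03 and −log10 q of 2.18 from 7 fragments. In replicate 2 a peak lay 6 bp upstream of the start, with a fold of 5.77 and −log10 q of 4.89, and an end of the protein-coding gene Gm20346 was 165 bp from its summit. A stronger one in the same library, with a fold of 7.43 and −log10 q of 7.85, lay 22516 bp into the gene. The 2 summits near the start were 1487 bp apart and the peaks did not overlap, so the count of Anp32a in both T69/71 libraries does not rest on a common region. No peak was listed in either S490/498 library, with the nearest summits 219 kb and 2818 kb from the gene.

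The Set peak was at an inner start. RefSeq lists 2 starts for Set (chromosome 2, 30061996 to 30072577, plus strand), and the gene encodes isoforms with different N termini. All 3 peaks lay at the inner one: 30066099 to 30066527 and 30066153 to 30066517 with T69/71, and 30066177 to 30066385 in S490/498 replicate 1. The summits lay 85, 249 and 205 bp upstream of the inner start and 4229 to 4393 bp inside the gene, and no summit fell in the window at the outer start. Fold was 5.70, 6.60 and 6.44, with −log10 q of 5.89, 8.21 and 6.11, and 48.0%, 37.9% and 43.6% of the peaks in these lists were stronger. When only peaks within 1 kb of a gene end were counted, Set had no peak. The Set window printed above held 1 CCAAT match and no TGACG or AP-1 match.

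The nucleolar genes had strong peaks. At Ncl (chromosome 1, 86344719 to 86359455, minus strand) the fold was 11.5 and 13.0 with T69/71 and 10.8 in S490/498 replicate 1, with −log10 q of 26.3, 31.5 and 17.8. The summits rested on 35, 39 and 23 fragments and lay 139, 89 and 58 bp upstream of the start. The long noncoding RNA gene C130036L24Rik starts 129 bp away on the other strand, and its first annotated base is 10 bp from the summit in T69/71 replicate 1. In the window printed above the summits fall on bases 112, 162 and 193. The 2 TGACG matches, both on the other strand of the window, start at bases 155 and 186. The one at base 155 was centred 5 bp from the summit of T69/71 replicate 2. The one at base 186 was centred 5 bp from that of S490/498 replicate 1. In T69/71 replicate 1 the nearer match was centred 45 bp away, and the summits were spread over 81 bp.

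At Npm1 (chromosome 11, 33152498 to 33164142) the fold was 10.3 and 13.4 with T69/71 and 8.50 in S490/498 replicate 1, with −log10 q of 14.9, 20.7 and 9.48. The peaks were 228 to 272 bp wide. The summits lay 917 to 967 bp inside the upper end of the annotated gene and within 50 bp of each other. No other gene end lay within 1 kb. Npm1 therefore also counted when only gene ends, and not gene bodies, were used.

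Several of the genes have a neighbour that starts on the other strand. Of the 8 genes with a listed start, Ncl, Anp32e, Cbx3 and Cbx5 had a start on the other strand within 1 kb upstream (4 of 8, 50%), against 13.1% of 17492 protein-coding genes. At these 4 genes the peak cannot be assigned to either direction of transcription. TGACG was in 2 of the 11 windows of these genes, at Ncl and Anp32e, and in 20.8% of all windows. CCAAT was in 6 of the 11 windows and in 37.4% of all windows. No window of the 8 genes held the full element TGACGTCA, present in 1.79% of all windows, or an AP-1 match, present in 5.20%. A match is a description of these letters in these windows only, and the TGACG matches include any that form part of TGACGTCA.

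Genes that work with these proteins were described for comparison, without a test. Those named from each list were picked for a peak in most libraries and then for best rank, so their folds do not represent the lists. The share of all genes set beside each list does not allow for CG content, which was not examined for these lists. Among genes with at least 16 CG dinucleotides at a start, 49.5% had a peak in both T69/71 libraries. In S490/498 replicate 1, 40.9% of them had one. Of 12 nucleolar partners of nucleophosmin and nucleolin, 9 had a peak in both T69/71 libraries (75.0%, against 29.4% of all genes). In S490/498 replicate 1, 7 had one (58.3%, against 24.7%). Nolc1, a nucleolar phosphoprotein, had folds of 12.6 and 10.0 with T69/71 and 10.2 in S490/498 replicate 1, Nop58, a core protein of box C/D small nucleolar particles, 9.51, 10.8 and 10.1, and Dkc1, the pseudouridine synthase dyskerin, 11.9, 9.93 and 8.17. At Ubtf, a factor of RNA polymerase I, folds of 9.08, 10.5 and 6.91 lay 4574 to 4653 bp from the nearer gene end.

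Of 14 matched acidic and PP2A-linked partners of SET and ANP32, 10 had a peak in both T69/71 libraries (71.4%, against 29.4% of all genes). In S490/498 replicate 1, 9 had one (64.3%, against 24.7%). The symbol Anp32c was not matched. Hmgb2, a chromatin protein with an acidic tail, had folds of 14.8, 17.0 and 9.55 in the same order. The PP2A scaffold gene Ppp2r1a had 13.3, 13.8 and 13.0, and the catalytic subunit gene Ppp2ca 14.8, 11.7 and 10.5. Ptma, which encodes the acidic protein prothymosin alpha, had 7.73, 11.0 and 7.44. Of 16 heterochromatin partners of HP1, 10 had a peak in both T69/71 libraries (62.5%, against 29.4% of all genes). In S490/498 replicate 1, 10 had one (62.5%, against 24.7%). At Suv39h2, a histone H3 methyltransferase, the folds were 12.4, 7.72 and 8.45, with the end of Dclre1c within 1 kb, and at Adnp they were 10.9, 6.95 and 10.1. Kmt5c, a histone H4 methyltransferase, had 10.5, 15.8 and 8.94, and Daxx, a chaperone of the histone variant H3.3, 8.84, 11.1 and 7.42; ends of other genes lay within 1 kb of both peaks, Zbtb22 among them at Daxx with T69/71. No gene of the 3 lists had a peak in S490/498 replicate 2.

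**Figure D4:**
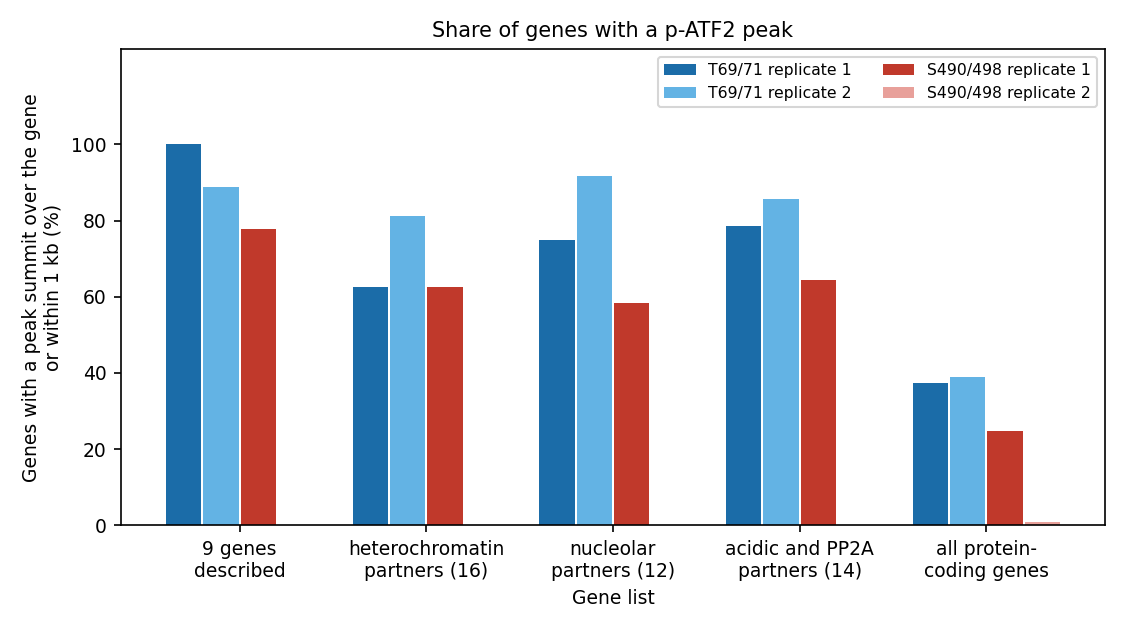
Percentage of genes with a peak summit over the gene or within 1 kb of either end, for the 9 genes, 3 lists of related genes (number matched in brackets) and all 21887 protein-coding genes, with 1 bar per library. The 9 genes and the related lists reach 58.3% to 100% in the 3 larger libraries, against 24.7% to 39% of all genes, and S490/498 replicate 2 reaches 0.859% of all genes and 0 in the lists.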

How the data were processed

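The data are peak lists, and each library has its own. Tools named in the submitters' processing notes are FastQC 0.11.5, Bowtie2 2.2.9, MACS2 (no version or settings given) and ChIPseeker, with mm10 as the build. The fold enrichment at the summit is a ratio deposited by the authors, relative to a background that differs between libraries and between peaks of a library. Folds of different libraries or genes are therefore descriptive. The authors also deposited −log10 p, −log10 q and a score, which is −log10 q times 10 cut to a whole number and was not used.

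Python 3.11.15 with pandas 2.3.3, numpy 2.4.6 and scipy 1.17.1 was used. Fragment pileups were solved from fold = (pileup + 1)/(background + 1) and the Poisson p, for −log10 p of at most 250 and to within 0.001; each peak at the 9 genes had 1 solution. Poisson intervals cover counting error only, and fragments may include PCR copies. Genes and promoter windows came from RefSeq tables of GRCm38.p6, the assembly of mm10, for chromosomes 1 to 19, X and Y, with 1-based positions. The recovery of pileups and the assignment of peaks were checked on simulated data.

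The genes, lists and tests were chosen with earlier results of these data known. Named were the 9 genes, every gene with an end within 1 kb of a summit there, and up to 4 genes per related list, those marked in most libraries and, at ties, of best mean rank of −log10 q. Alternatives varied the window, the threshold, the length of the lists and the libraries used.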

Additional observations from a re-analysis of the deposited data

How the results depend on the processing

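The counts of the 9 genes with a peak kept within 1.5 times their value under windows of 500 bp and 2.5 kb, gene ends only, listed starts only, any overlap, −log10 q of at least 5, equal numbers of peaks in the 3 longer lists (7132), and, an alternative chosen after seeing the data, CG-rich starts only. With listed starts only, 6 genes had a peak in both T69/71 libraries, against 18.3% of all genes, and Npm1, without a listed start, could not count. With −log10 q of at least 10, the count was 5 in T69/71 replicate 2 and in both T69/71 libraries, against 16% and 9.83% of all genes, and 4 in S490/498 replicate 1, against 7.35%. With the 435 strongest peaks of each library, it was 1 in T69/71 replicate 1 and in S490/498 replicate 1 (Cbx3 in each) and 0 in T69/71 replicate 2 and in both T69/71 libraries. The shares of all genes at that length were 1.83%, 1.91%, 1.66% and 0.946%, from which 0 or 1 of 9 cannot be told apart. The difference between the antibodies was then 0 (exact permutation p = 1). Leaving out each library in turn, that difference ranged from 1.5 to 8.5 genes, the count for T69/71 from 8 to 9 and that for S490/498 from 0 to 7. Permuting within replicate numbers, as a block, gave the same difference of 5 genes with an exact p of 0.5, the smallest 2 pairs allow; the labels do not say that the numbers pair the libraries. Low fragment numbers limit the counts, as the summits at the 9 genes rested on 7 to 53 fragments. In replicate 2 of S490/498 the lowest background at any listed peak was 1.52 fragments, against 0.0874 to 0.117 in the others, which list more peaks. The peaks of that library had at least 9 fragments, and an absent peak there does not show absent signal.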
